A study of Mus musculus with 18 samples.

Results

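The region described here holds the serum amyloid A genes Saa1, Saa2, Saa3 and Saa4 and their neighbour Saal1, which lie side by side on mouse chromosome 7. Its members are the ATAC-seq peaks that overlap the body of one of these 5 genes extended by 25 kb on both sides (mm9, GENCODE M1), which gave 48 of the 194284 peaks of the series, and all 48 entered the fit with 194182 other peaks. The locus was picked because peaks at Saal1 stood open with LPS + IL-10 above the other conditions, so the levels of the Saal1 peaks, and every contrast with LPS + IL-10, are given as a description without a test. Each peak was assigned to the member gene whose body it overlaps, or else to the member gene with the nearest transcription start site (TSS): 17 peaks to Saal1, 7 to Saa3, 8 to Saa4, 4 to Saa1 and 12 to Saa2. The outermost peaks assigned to Saal1 lie over exons of Tph1, and the outermost assigned to Saa2 lie over Hps5. Tph1 and Hps5 are neighbouring genes and no members, so values given per gene are those of its assigned peaks.

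Accessibility was measured in bone marrow-derived macrophages (BMDMs) from 3 Il10-/- mice, cultured for 6 days in L929-conditioned media, and spread over 6 groups. Libraries are numbered 1 to 3 in each group, and values are given in that order, but no source used here ties a number to a mouse. All groups lacked endogenous Il10, no wild-type cells were analysed here, so the deletion itself was not checked, and the mice were 12-week-old males on the C57BL/6J background. Unstimulated cells were kept for 16 hours. The JQ1 and IL10 groups received 500 nM (+)-JQ1, which displaces BET bromodomain proteins from acetylated histones, or 10 ng/mL IL-10 without LPS. The LPS group received 50 ng/mL LPS for the last 4 hours, and the LPS_JQ1 and LPS_IL10 groups received the same LPS after 12 hours of pretreatment with (+)-JQ1 or IL-10. The paper also names a vehicle control for the 12 hours before LPS, while it calls the unstimulated cells untreated. The LPS libraries are titled untreated, so whether they received vehicle is not clear. Contrasts with unstimulated cells may therefore also differ by vehicle. Each group had 3 libraries. Values are CPM, the count of a peak scaled to the library's total in peaks with TMM normalization, and a higher value can mean more cells with the site open or a more open site in each cell, which bulk ATAC-seq cannot tell apart.

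Serum amyloid A proteins are acute-phase proteins that travel on high density lipoprotein. Saa1 and Saa2 are made in bulk by the liver after injury or infection, under the control of IL-6, IL-1 and TNF acting through STAT3, C/EBP and NF-kappaB. Saa3 is made mainly outside the liver, in macrophages, adipose tissue and epithelium, and is a well known LPS response gene of mouse macrophages, whereas Saa4 is expressed constitutively in liver. Saal1 (serum amyloid A-like 1) is a separate gene beside the cluster. IL-10 is the main deactivating cytokine of macrophages and signals through STAT3.

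The genes run in the order Saal1 (chr7:53941478-53966050, minus strand), Saa3 (chr7:53967368-53971046, minus), Saa4 (chr7:53983387-53987913, minus), Saa1 (chr7:53995871-53998350, minus) and Saa2 (chr7:54007203-54009684, plus), and 1.32 kb separate the Saal1 TSS from the 3′ end of Saa3. A promoter here means 1000 bases before to 100 bases after a TSS. One peak lay over the promoter of Saal1, Saa3 and Saa1 each, 2 lay over that of Saa2, and no peak over that of Saa4.

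The 4 Saa promoters are printed because Saa1, Saa2 and Saa3 have an accessibility peak in this stretch and Saa4 has none, and because Saa1 and Saa2 are nearly the same sequence. Each line holds 250 bases before to 50 bases after the start of the RefSeq gene (from its GRCm38.p6 table, where 4 of the 5 genes were matched), read along the gene's own strand. The coordinates are those of its only exact match on mm9 chromosome 7, and capitals mark motif matches on either strand for kappaB (GGNNTTNCC), C/EBP (TTGCNNAA), STAT (TTCNNNGAA), AP-1 (TGANTCA), IRF (GAAANNGAA) and the TATA box (TATAAA).
Saa3, chr7:53970997-53971296, minus strand: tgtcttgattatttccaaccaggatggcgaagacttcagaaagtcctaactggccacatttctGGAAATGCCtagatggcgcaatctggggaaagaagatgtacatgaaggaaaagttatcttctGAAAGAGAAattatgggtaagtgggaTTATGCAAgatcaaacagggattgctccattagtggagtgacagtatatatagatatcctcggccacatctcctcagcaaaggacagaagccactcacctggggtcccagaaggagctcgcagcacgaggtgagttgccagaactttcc
Saa4, chr7:53987924-53988223, minus strand: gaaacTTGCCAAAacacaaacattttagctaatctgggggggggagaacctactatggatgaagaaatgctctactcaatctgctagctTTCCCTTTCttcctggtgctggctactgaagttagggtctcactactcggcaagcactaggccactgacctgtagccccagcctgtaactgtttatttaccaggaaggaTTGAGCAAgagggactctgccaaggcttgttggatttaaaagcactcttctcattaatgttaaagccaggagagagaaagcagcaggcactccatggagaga
Saa1, chr7:53998301-53998600, minus strand: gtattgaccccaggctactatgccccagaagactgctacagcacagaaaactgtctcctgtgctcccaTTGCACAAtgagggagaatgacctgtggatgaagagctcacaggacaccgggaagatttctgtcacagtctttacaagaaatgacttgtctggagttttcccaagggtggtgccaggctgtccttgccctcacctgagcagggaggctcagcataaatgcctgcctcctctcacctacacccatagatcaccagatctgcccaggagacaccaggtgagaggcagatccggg
Saa2, chr7:54006953-54007252, plus strand: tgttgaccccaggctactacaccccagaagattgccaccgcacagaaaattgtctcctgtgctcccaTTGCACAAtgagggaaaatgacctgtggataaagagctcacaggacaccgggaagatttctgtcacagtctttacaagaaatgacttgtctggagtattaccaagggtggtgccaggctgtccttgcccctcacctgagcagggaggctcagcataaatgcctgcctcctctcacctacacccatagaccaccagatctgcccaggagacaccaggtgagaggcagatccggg

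All 4 promoters held the C/EBP letters, which 10.8% of 32851 RefSeq promoters of the same length hold. Saa1 and Saa2 carry the same TTGCACAA at 182 and 183 bases before the start, within promoters that were 95.3% identical and are therefore not separate examples. Saa3 was the only one of the 4 with the kappaB letters (GGAAATGCC, 187 bases before the start, against 16% of all promoters), and it also held C/EBP (TTATGCAA, 99 bases) and IRF (GAAAGAGAA, 125 bases) matches. Saa4 held 2 C/EBP matches (TTGCCAAA at 245 and TTGAGCAA at 52 bases) and an IRF match (TTCCCTTTC at 161 bases). The STAT, AP-1 and TATA letters were in none of the 4 windows. Identity between Saa3 or Saa4 and any other member was between 48.4% and 54.2%. Because the authors kept uniquely mapped reads, near-identical stretches can lose reads: 33% of all windows of 50 bases in Saa1 and 32.6% in Saa2 had an exact second copy on the chromosome, against 3.36% in Saa3, 1.16% in Saa4 and 3.99% in Saal1. Levels at the Saa1 and Saa2 bodies are uncertain for this reason.

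A further 3 sequences are the central 300 bases of the intergenic peaks with the largest response to IL-10 alone, to LPS alone, and, among peaks that passed with IL-10 and not with LPS, to IL-10, given on the plus strand of mm9 with the same marking.
2.14 kb upstream of Saa4, chr7:53990605-53990904: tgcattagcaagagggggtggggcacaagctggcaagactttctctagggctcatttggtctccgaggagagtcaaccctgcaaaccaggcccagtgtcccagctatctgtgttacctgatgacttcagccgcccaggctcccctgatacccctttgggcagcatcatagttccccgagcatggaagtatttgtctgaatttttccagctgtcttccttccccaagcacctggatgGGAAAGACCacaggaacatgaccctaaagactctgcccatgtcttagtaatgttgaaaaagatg
7.66 kb upstream of Saa3, chr7:53979273-53979572: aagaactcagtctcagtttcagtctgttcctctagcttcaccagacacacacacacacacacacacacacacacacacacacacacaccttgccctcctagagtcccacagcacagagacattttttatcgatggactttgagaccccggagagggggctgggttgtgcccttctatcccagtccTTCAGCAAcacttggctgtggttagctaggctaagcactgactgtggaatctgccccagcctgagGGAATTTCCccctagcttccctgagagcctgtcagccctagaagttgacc
1.11 kb upstream of Saa3, chr7:53972326-53972625: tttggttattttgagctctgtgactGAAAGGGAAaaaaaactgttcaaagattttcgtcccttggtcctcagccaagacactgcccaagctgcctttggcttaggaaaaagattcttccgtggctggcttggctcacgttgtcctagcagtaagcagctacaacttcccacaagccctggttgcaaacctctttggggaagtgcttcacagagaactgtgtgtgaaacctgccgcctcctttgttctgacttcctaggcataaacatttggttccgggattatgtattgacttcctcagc

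The peak upstream of Saa4 held a kappaB match (GGAAAGACC), the peak 7.66 kb upstream of Saa3 held a kappaB (GGAATTTCC) and a C/EBP match (TTCAGCAA), and the peak 1.11 kb upstream of Saa3 held an IRF match (GAAAGGGAA). The intergenic peak 2.53 kb upstream of Saa1, which had the second largest response to IL-10 alone and is not printed, held no match to any of these motifs. In the central 300 bases of all 48 member peaks a match was found in these shares of member peaks and of all peaks: 12.5% against 14.1% for kappaB, 14.6% against 12.5% for C/EBP, 10.4% against 8.74% for STAT, 10.4% against 12.1% for AP-1, 16.7% against 10.1% for IRF and 10.4% against 15.7% for TATA.

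The libraries held between 12020526 and 25908198 counts in peaks. Of 7 macrophage markers, 6 had a promoter peak (Spi1 was not matched in the annotation), with a summed level of 87.7 to 140 CPM in unstimulated libraries and 129 to 186 CPM in all other libraries. The hepatocyte genes Alb, Ttr and Serpina1a had no promoter peak, and the only hepatocyte marker with one, Apoa2, lay between 7.16 and 8.49 CPM without stimulation and between 18.3 and 21.8 CPM with LPS. Of 3 neutrophil markers, S100a8 and Elane had a peak and Ly6g had none, and their sum moved with IL-10: 25.4 to 42.7 CPM in unstimulated, 46.8 to 51.2 in IL10, 31.8 to 36.3 in LPS and 43.9 to 48.8 in LPS_IL10 libraries. The T and B cell list (1 of 3 with a peak), the epithelial list (2 of 2) and the dendritic cell list (2 of 2) summed to 0.637 to 0.919, 4.58 to 5.33 and 36.1 to 43.2 CPM in LPS_IL10, against 0.717 to 1.01, 4.48 to 5.88 and 42.4 to 47 CPM in LPS. The part of these markers in the results below was not tested.

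Taken per kb of peak, the 5 genes started from similar levels and ended far apart. In unstimulated cells the summed peaks held 1.88 CPM per kb at Saal1, 2.1 at Saa3, 2.09 at Saa4, 1.32 at Saa1 and 1.5 at Saa2. With LPS + IL-10 the same peaks held 9.52 CPM per kb at Saal1, 8.17 at Saa3, 5.44 at Saa4, 4.56 at Saa1 and 2.86 at Saa2. Saal1 and Saa3 therefore stood highest, though their libraries overlap, and Saa4 and Saa1 came next. The peaks assigned to Saa2, which include those over Hps5, were the least open.

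**Figure D1:**
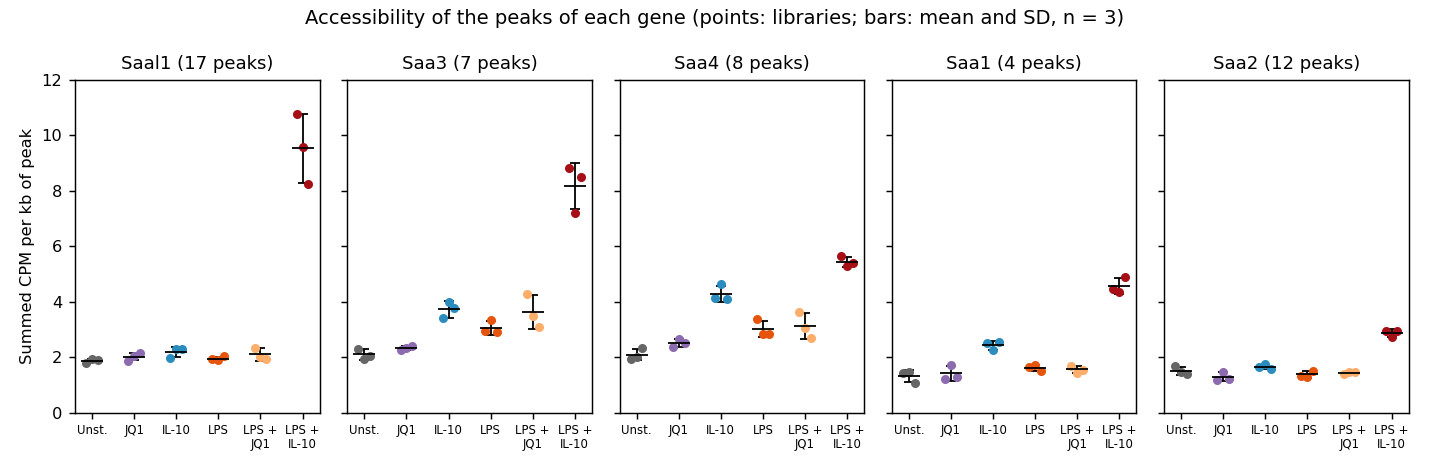
Summed CPM per kb of peak (y axis) of the peaks of each gene in the 6 groups (x axis), with 1 point per library and bars for the mean and SD of 3 libraries. The LPS + IL-10 libraries lie above all others in each panel, with a mean of 9.52 CPM per kb at Saal1 and 2.86 at Saa2, while IL-10 alone lies between unstimulated cells and LPS + IL-10 at Saa3, Saa4 and Saa1, at Saa4 with the 1 peak 2.14 kb upstream of the gene.

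As a sum over its 17 peaks, Saal1 held 32.3, 34.7 and 34.3 CPM in the 3 unstimulated libraries, 33.6, 36.4 and 38.3 with (+)-JQ1, 35.4, 40.9 and 41.4 with IL-10, 34.8, 33.9 and 36.4 with LPS, and 42.1, 35.8 and 34.9 after LPS + (+)-JQ1. With LPS + IL-10 it held 193, 172 and 148 CPM. These 3 values are the ones the locus was chosen for, and their mean was 4.88 times that of LPS. For the other genes the same ratio of means was 2.68 at Saa3, 1.8 at Saa4, 2.83 at Saa1 and 2.08 at Saa2. The 3 LPS + IL-10 sums lie above the 3 LPS sums at each of the 5 genes, but the contrast is the one that picked the locus and no test is attached.

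Within Saal1, the rise with LPS + IL-10 was centred on the start of the gene. The peak in the first part of the gene body, 1.94 kb inside the TSS (chr7:53962488-53964108, intron), held 2.34, 1.15 and 1.64 CPM in unstimulated cells, 0.656, 1.12 and 1.25 with (+)-JQ1, 1.23, 2.97 and 3.76 with IL-10, 2.02, 2.45 and 1.61 with LPS, 2.3, 1.75 and 1.01 after LPS + (+)-JQ1 and 28.9, 27.9 and 21.4 with LPS + IL-10. The 3 LPS + IL-10 libraries stand several-fold above each of the other 15, which form a single low band. Its log2 fold change of 3.67 ± 0.21 (here and below ± SE) against LPS ranks 1 of 194230 tested peaks. The next peak into the gene, 5.67 kb from the TSS (chr7:53958963-53960378), went from 2.16, 2.05 and 2.75 CPM with LPS to 26.4, 24.2 and 20.7 CPM with LPS + IL-10, a log2 fold change of 3.37 ± 0.20 that ranks 3.

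The peak over the Saal1 promoter (chr7:53964567-53968157), 3590 bp wide and reaching the last exon of Saa3, was the most accessible of the 48 with a mean of 34.3 CPM over all 18 libraries. It held 13.1, 16.6 and 19.8 CPM in unstimulated cells, 23.6, 23.8 and 24.9 with (+)-JQ1, 22.6, 23.9 and 26.3 with IL-10, 21.2, 19.9 and 21.8 with LPS, 26.5, 24.6 and 21.8 after LPS + (+)-JQ1 and 111, 95.1 and 80.3 with LPS + IL-10. Unlike the peaks inside the gene it was open before any treatment, so the Saal1 peaks were not all closed outside LPS + IL-10, and each treated group lay above the unstimulated one, by a log2 fold change of 0.55 ± 0.14 with IL-10, 0.54 ± 0.14 with (+)-JQ1 and 0.34 ± 0.14 with LPS. Such rises were not particular to Saal1. The Stat3 and Rela promoters had 0.51 and 0.41 with IL-10 and 0.48 and 0.59 with LPS, while the Hp promoter had -0.54 with LPS. At the Saal1 promoter the log2 fold change of LPS + IL-10 against LPS was 2.19 ± 0.14. The extra effect of the pair over the sum of LPS and IL-10 alone, the interaction, was 1.64 ± 0.20.

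Toward the 3′ end of Saal1 the levels were low and the rises smaller. The peaks 13.04 and 14.31 kb from the TSS had log2 fold changes of 2.56 ± 0.32 and 2.25 ± 0.36 against LPS, from 0.358 to 1.1 CPM with LPS to 2.66 to 5.08 CPM with LPS + IL-10. Of the 17 Saal1 peaks 10, all of them 14.31 kb or farther from the TSS, had a mean under 20 counts per library, and the lowest single count was 0. Against unstimulated cells, LPS alone gave negative log2 fold changes at several of them, the largest -1.55 ± 0.48 at chr7:53939112-53939863, 26.19 kb from the TSS, from 0.87, 1.37 and 0.822 to 0.276, 0.2 and 0.597 CPM.

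Across the whole locus, the fitted value of LPS + IL-10 stood above that of LPS at all 48 members, by between 0.29 and 3.67 on the log2 scale, with a median of 1.14 beside -0.01 over all tested peaks. A differentially accessible region (DAR) had a false discovery rate (FDR) under 0.05 in edgeR's quasi-likelihood test over all peaks and a log2 fold change above 0.5 in size. By that rule 28 of the 48 peaks were higher and 0 lower, where 4.26% of all peaks were higher and 4.51% lower, and the counts were 12 of 17 at Saal1, 4 of 7 at Saa3, 2 of 8 at Saa4, 3 of 4 at Saa1 and 7 of 12 at Saa2. The Saal1 count includes peaks over Tph1 exons, and the Saa2 count includes peaks over Hps5. Against IL-10 alone 29 of 48 were higher and 0 lower (8.93% and 6.47% of all peaks), with a median log2 fold change of 1.13, and the highest values were 3.48 ± 0.20 and 3.29 ± 0.20 at the 2 peaks in the first part of the Saal1 body. The interaction was positive by this rule at 19 and negative at 1 (2.01% and 5.9%), and its highest values, 3.33 ± 0.69 at chr7:53949133-53950017 and 3.29 ± 0.65 at chr7:53939112-53939863, had wide errors and came from low-count peaks toward or beyond the 3′ end of Saal1. Since the choice of the locus used these contrasts, nothing is read from the counts.

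**Figure D2:**
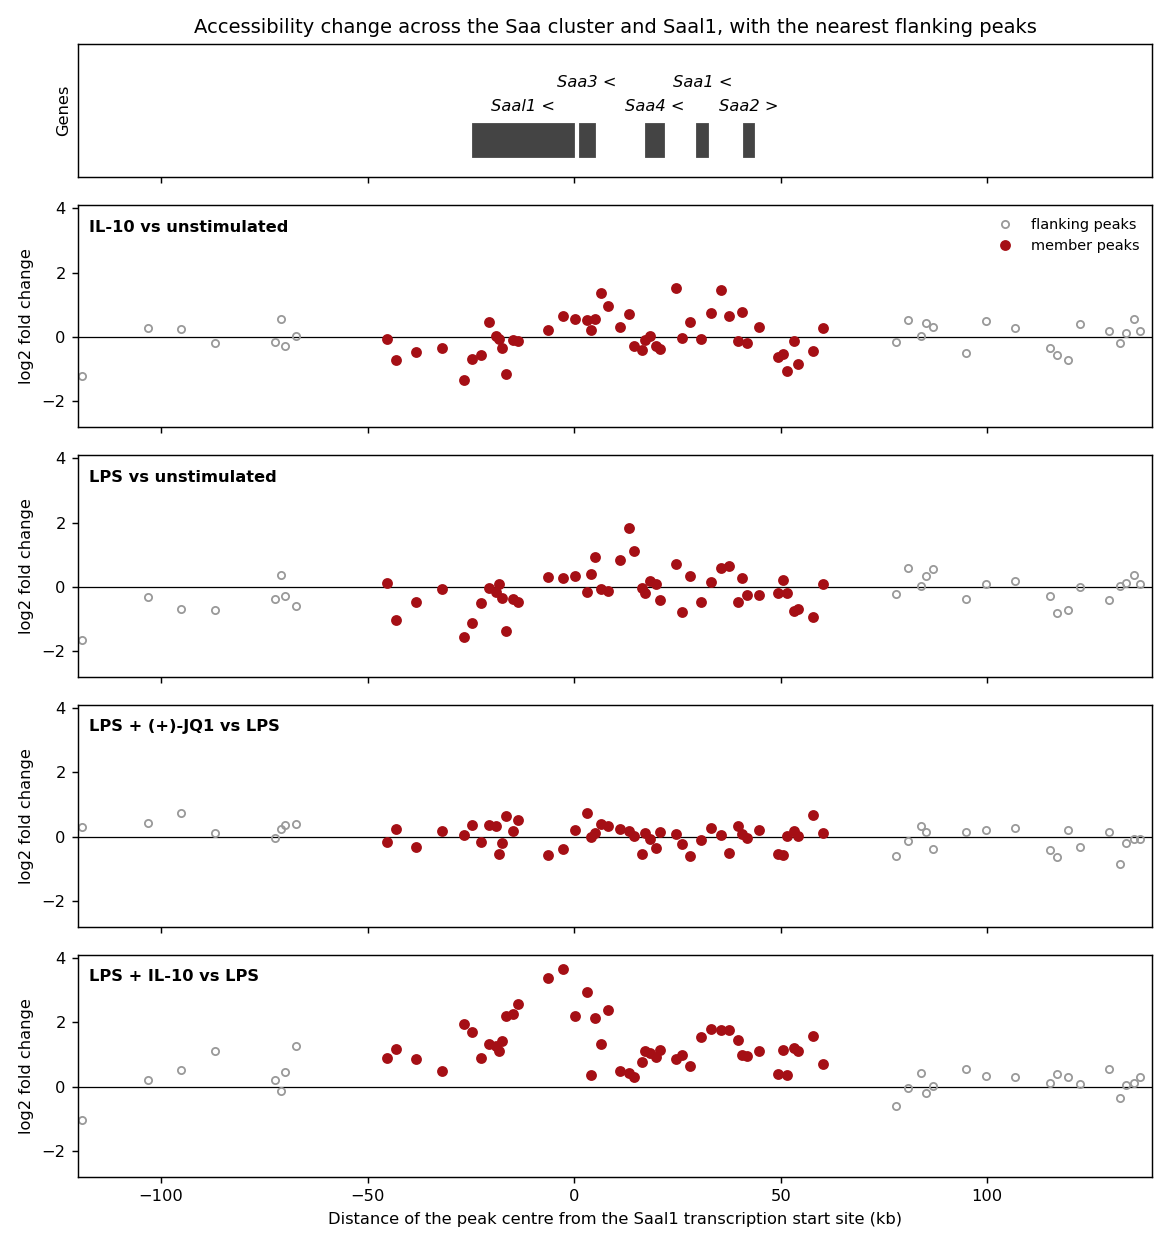
Fitted log2 fold change (y axis) of each member peak (filled) and the nearest flanking peaks (open) against the distance of its centre from the Saal1 TSS in kb (x axis), for 4 comparisons, with gene bodies and strand (< minus, > plus) on top. With LPS + IL-10 against LPS the values peak at 3.67 just inside Saal1 and have a second, lower rise around Saa1 near 1.79, while the highest value with IL-10 alone is at the peak 2.14 kb upstream of Saa4 and with LPS alone at the peak 7.66 kb upstream of Saa3.

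Away from Saal1 the values were lower and uneven. From the maximum at Saal1 the log2 fold change against LPS went to 2.94 ± 0.27 in the Saa3 body (chr7:53968787-53969546), 0.37 ± 0.18 at the next peak over a Saa3 exon (chr7:53969677-53970412), 2.15 ± 0.21 at the Saa3 promoter and 2.38 ± 0.17 at 1.94 kb upstream of Saa3, dropped to 0.43 ± 0.18 and 0.29 ± 0.27 between Saa3 and Saa4, the last being the lowest of the 48, and rose again to 1.79 ± 0.22 at the Saa1 promoter, 1.75 ± 0.17 upstream of Saa1 and 1.76 ± 0.24 upstream of Saa2. At the edge of the 25 kb limit, the outermost member on the left (chr7:53920450-53921227, a Tph1 exon) had 0.88 ± 0.25 and the first peak outside it (chr7:53898421-53899089, intergenic) 1.25 ± 0.38. On the right, the last member (chr7:54025056-54027562, an Hps5 exon) had 0.71 ± 0.17 and the first peak outside (chr7:54043574-54044387, an Hps5 exon) -0.60 ± 0.31. Of 64 flanking peaks between 25 and 250 kb from the outermost genes, 8 were higher and 0 lower (4.26% and 4.51% of all peaks). Their median log2 fold change was 0.25. On the left side of the flank, LPS against unstimulated cells gave 13 of 23 peaks lower and 0 higher (10.2% and 11.7% of all peaks). The median there was -0.82, beside -0.03 over all peaks, on the side where the far Saal1 peaks also had negative values with LPS.

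At the Saa3 promoter (chr7:53970445-53971695) the peak held 1.87, 1.54 and 1.31 CPM in unstimulated cells, 0.716, 1.96 and 1.31 with (+)-JQ1, 2.06, 2.97 and 1.83 with IL-10, 2.94, 2.35 and 3.7 with LPS, 5.07, 2.56 and 2.48 after LPS + (+)-JQ1 and 14.8, 11.4 and 13.4 with LPS + IL-10. The Saa1 promoter peak (chr7:53997962-54000350) held 2.34, 2.14 and 1.43, 1.31, 2.87 and 1.93, 3.25, 3.21 and 3.29, 2.21, 2.15 and 2.21, 2.53, 2.62 and 2.79 and 7.52, 6.43 and 8.68 CPM in the same order. Both promoters have their 3 LPS + IL-10 libraries above all 15 others, a pattern shown by 21 of the 48 members and by 2.49% of all peaks. The peaks over the Saa2 promoter were weaker. The one ending 0.04 kb before the TSS (chr7:54006361-54007165) held 0.505, 0.25 and 1.01 CPM with LPS and 1.07, 1.68 and 0.735 with LPS + IL-10, groups that overlap, and the one ending 0.91 kb before it (chr7:54005046-54006289) held 0.643, 1.25 and 1.25 and 2.49, 3.77 and 2.39 CPM, groups that do not. The widest member, 4918 bp over the Saa2 body and its 3′ side (chr7:54008258-54013176), was the third most accessible with a mean of 9.67 CPM and held 7.4, 7.09 and 6.87 CPM with LPS and 16.6, 13.6 and 15.4 with LPS + IL-10.

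**Figure D3:**
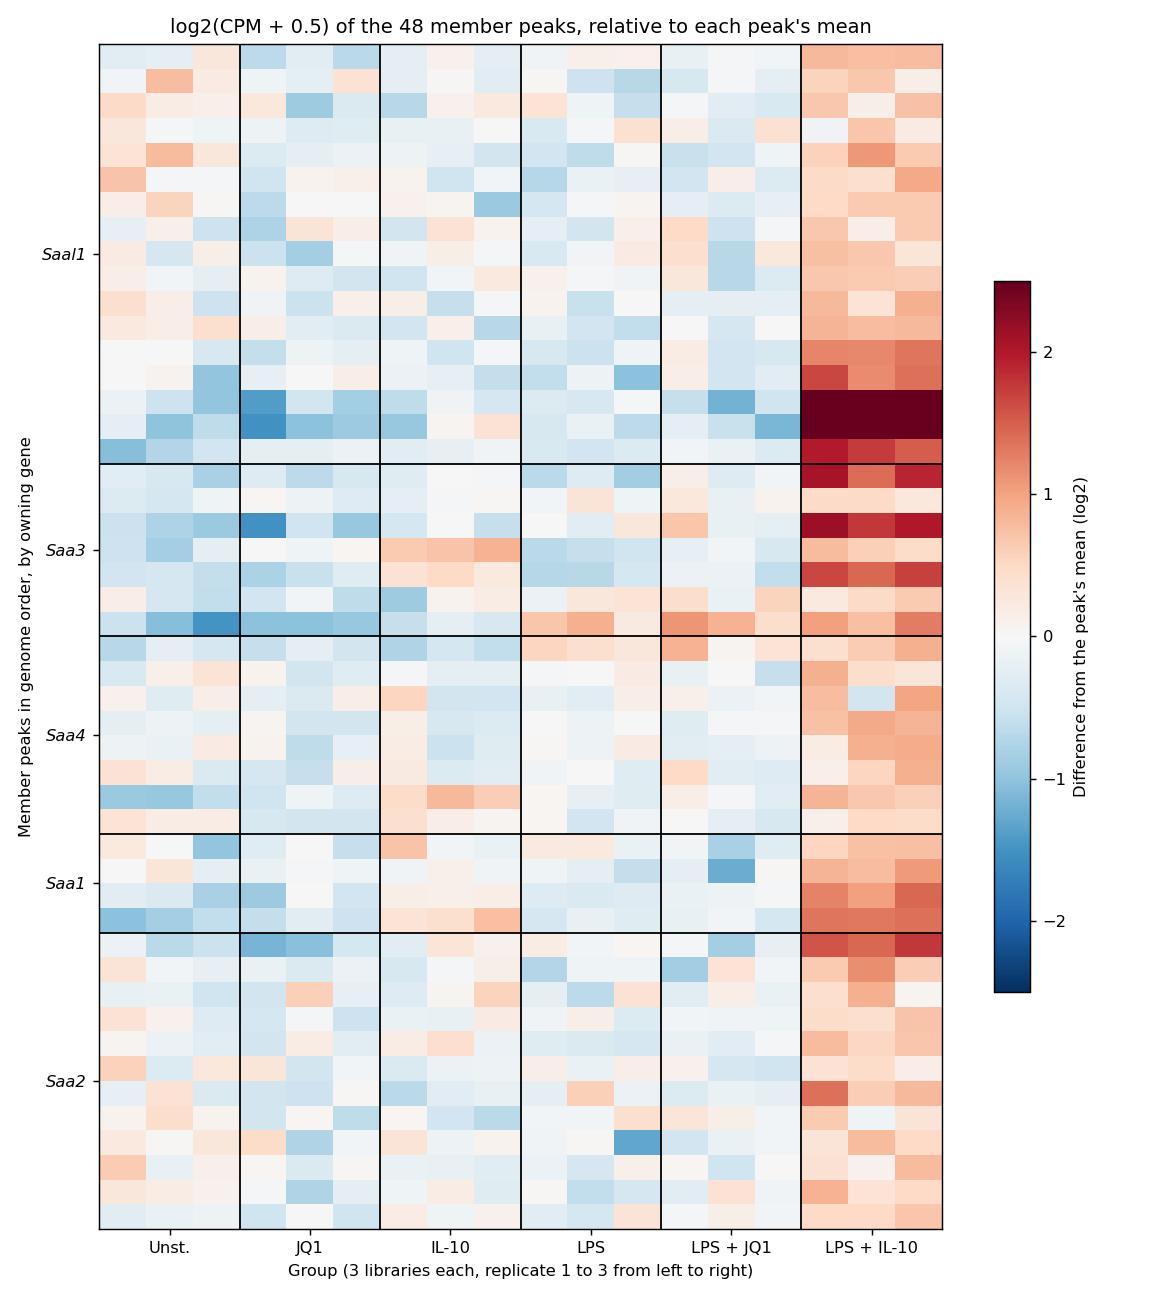
log2(CPM + 0.5) of the 48 member peaks (rows, in genome order and grouped by owning gene) in the 18 libraries (columns, 3 per group), shown as the difference from each peak's mean over all libraries. The 3 LPS + IL-10 columns are red in nearly every row and darkest at the start of Saal1, where the colour reaches the end of the scale, and a few rows of Saa3, Saa4 and Saa1 are also red with IL-10 alone or with LPS.

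Whether IL-10 alone opens the cluster was tested at the 31 peaks assigned to Saa3, Saa4, Saa1 and Saa2. The locus was picked on peaks at Saal1, and the Saa3 peaks and most Saa4 peaks lie within 25 kb of the Saal1 body. If they entered that choice, the tests at them, here and below, are not independent of it. IL-10 raised 6 of the 31 (19.4%) and lowered 0, beside 5.16% of all peaks higher and 3.5% lower, with a median log2 fold change of 0.04 over the 31 and -0.05 over all peaks. All 6 lay between the Saa3 TSS and the start of Saa2: 3 belonged to Saa3, 1 to Saa4 and 2 to Saa1, and 0 of the 12 Saa2 peaks passed in edgeR. At an unadjusted p under 0.05 edgeR had 9 of the 31 and DESeq2 8, and DESeq2 also gave 6 higher and 0 lower. All 3 IL-10 libraries stood above all 3 unstimulated ones at 2 Saa3, 1 Saa4, 2 Saa1 and 1 Saa2 peaks, a pattern that 13.7% of all peaks show.

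The largest rise with IL-10 alone was at the intergenic peak 2.14 kb upstream of Saa4 (chr7:53990054-53991455), whose central sequence is printed above. It held 8.16, 8.08 and 10.3 CPM in unstimulated cells and 22.3, 28.6 and 24.7 CPM with IL-10, and it was the second most accessible member. The groups are well apart and the log2 fold change was 1.51 ± 0.15 (edgeR adjusted p = 2.25e-13). The other 7 Saa4 peaks together held 5.82, 6.26 and 6.41 CPM in unstimulated cells and 7.37, 4.57 and 4.6 CPM with IL-10, groups that overlap. With LPS + IL-10 it held 29.3, 25.7 and 24.4 CPM, overlapping IL-10 alone, and the fitted difference between these 2 groups was 0.07 ± 0.14. The interaction of LPS and IL-10 at this peak was -0.64 ± 0.20, the lowest of the 48, given as a description without a test.

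The peak 2.53 kb upstream of Saa1 (chr7:54000880-54002159) came second. It held 2.54, 2.91 and 3.51 CPM in unstimulated cells and 7.28, 7.63 and 9.91 CPM with IL-10 (log2 fold change 1.46 ± 0.18, edgeR adjusted p = 3.39e-09), and it went on to 15.1, 14.9 and 15.5 CPM with LPS + IL-10. Here the combined treatment stands above IL-10 alone in every library.

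Close to Saa3, 2 neighbouring intergenic peaks passed with IL-10 and not with LPS. The peak 1.11 kb upstream (chr7:53972155-53972795) held 3.88, 3.02 and 4.82 CPM in unstimulated cells, 9.39, 9.82 and 11.1 with IL-10 and 3.45, 3.75 and 3.94 with LPS. The IL-10 libraries are above all unstimulated and LPS libraries, and the log2 fold change was 1.37 ± 0.17 with IL-10 (edgeR adjusted p = 8.30e-09) and -0.08 ± 0.19 with LPS (adjusted p = 0.808). With LPS + IL-10 it returned 10.4, 8.98 and 8.22 CPM, a fitted difference of -0.14 ± 0.16 from IL-10 alone, the lowest of the 48. The peak 1.94 kb upstream (chr7:53972988-53975609) went from 4.15, 4.34 and 3.78 to 7.82, 8.65 and 7.24 CPM with IL-10 (log2 fold change 0.95 ± 0.17, edgeR adjusted p = 8.03e-05), held 3.45, 3.5 and 4.3 CPM with LPS and 20.3, 17.1 and 20.8 CPM with both.

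The other 2 DARs of IL-10 alone were small and depended on the fit. The Saa1 promoter had a log2 fold change of 0.73 ± 0.24 (edgeR adjusted p = 0.0307) and the peak 7.66 kb upstream of Saa3 one of 0.72 ± 0.23 (adjusted p = 0.0277). The Saa1 promoter had 0.88, 0.81 and 0.53 (edgeR adjusted p = 0.0591, 0.146 and 0.27) without the libraries numbered 1, 2 and 3 in turn, and the other peak 0.56 without number 2 (0.315) and 0.47 without number 3 (0.258). The Saa3 promoter itself did not pass, with a log2 fold change of 0.55 ± 0.27 (adjusted p = 0.182). At the lower end were -1.05 ± 0.49 at chr7:54017158-54017829 and -0.85 ± 0.51 at chr7:54020023-54020607, both within Hps5 and not past the threshold (edgeR adjusted p = 0.159 and 0.298).

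**Figure D4:**
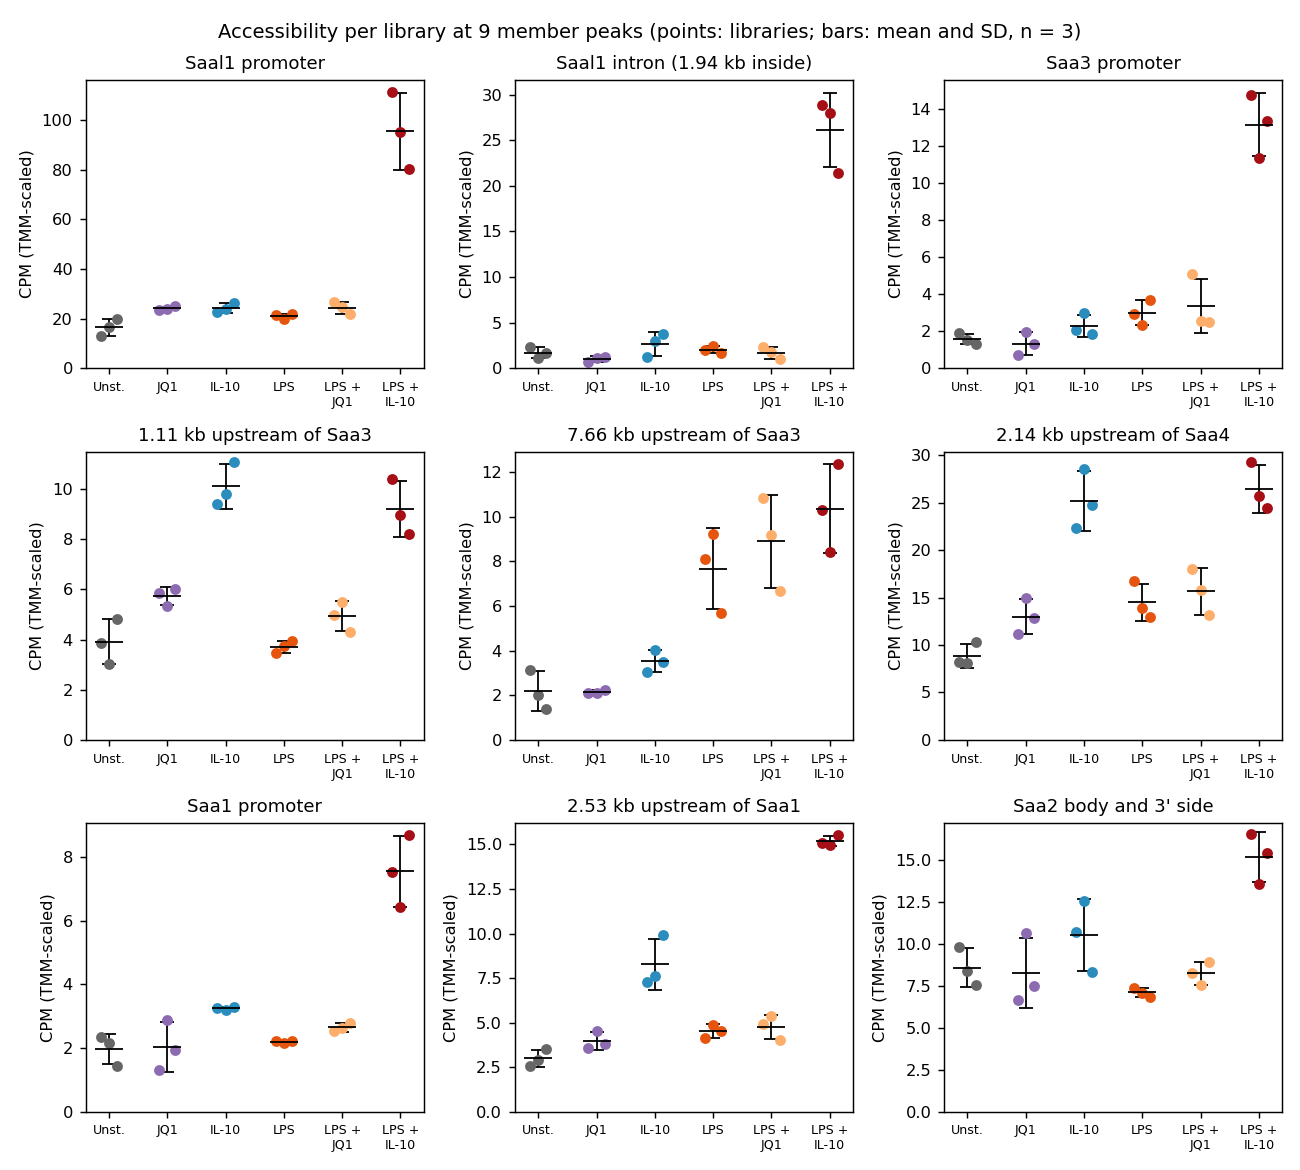
CPM per library (y axis, from 0) in the 6 groups (x axis) at 9 member peaks, with 1 point per library and bars for the mean and SD of 3 libraries. The Saal1 peaks and the Saa3 and Saa1 promoters are high with LPS + IL-10, the peaks 1.11 kb upstream of Saa3 and 2.14 kb upstream of Saa4 are as high with IL-10 alone, and the peak 7.66 kb upstream of Saa3 is high in all 3 groups with LPS.

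LPS alone raised 5 of the 31 peaks (16.1%) and lowered 0, beside 11.7% of all peaks higher and 10.2% lower, with a median of -0.03 over the 31 and over all peaks alike, so the share called higher was near the background. With total counts in place of TMM scaling the split was 3 higher and 2 lower, while DESeq2 gave 5 and 0. At an unadjusted p under 0.05 edgeR had 8 of the 31 and DESeq2 7. The largest rise was at the intergenic peak 7.66 kb upstream of Saa3 (chr7:53978710-53980135), which held 3.15, 2.03 and 1.37 CPM in unstimulated cells, 8.09, 9.24 and 5.67 with LPS, 10.8, 9.17 and 6.67 after LPS + (+)-JQ1 and 10.3, 8.4 and 12.4 with LPS + IL-10. All 9 libraries with LPS lie above all 9 without it, and the log2 fold change of LPS was 1.84 ± 0.21 (edgeR adjusted p = 5.49e-12). The adjoining peak on the Saa4 side (chr7:53980149-53981026) went from 0.736, 1.21 and 0.986 to 2.39, 2.15 and 1.91 CPM, a log2 fold change of 1.12 ± 0.31 (adjusted p = 0.00375), and LPS + IL-10 differed from LPS at these peaks by fitted values of 0.43 ± 0.18 and 0.29 ± 0.27.

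The Saa3 promoter rose with LPS by 0.93 ± 0.26 (edgeR adjusted p = 0.00449), with all 3 LPS libraries above the unstimulated ones, as at 18.1% of all peaks. The peak upstream of Saa4 rose by 0.72 ± 0.15 (adjusted p = 1.18e-04), from 8.16, 8.08 and 10.3 to 16.7, 13.9 and 13 CPM, and the peak 2.53 kb upstream of Saa1 by 0.59 ± 0.19 (adjusted p = 0.017). The last of these had 0.57 without the libraries numbered 1 and 0.50 without those numbered 2 (edgeR adjusted p = 0.072 and 0.189), the Saa3 promoter 0.64 without number 3 (0.143) and the peak on the Saa4 side 0.90 without number 1 (0.0829), so these calls were lost there. The Saa1 promoter had a log2 fold change of 0.16 ± 0.25 (adjusted p = 0.688). The 2 lowest values were -0.94 ± 0.50 at chr7:54023699-54024260 in Hps5 and -0.77 ± 0.50 at chr7:53991910-53992512 between Saa4 and Saa1, neither past the threshold (adjusted p = 0.16 and 0.272). The comparisons of LPS and of IL-10 share the unstimulated libraries, and the difference between the effects of the 2 agents was not tested.

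(+)-JQ1 without LPS raised 2 of the 31 peaks (6.45%) and lowered 0, beside 7.85% of all peaks higher and 3.15% lower, again near the background, with a median log2 fold change of -0.20 over the 31 and -0.09 over all peaks. They were the peak upstream of Saa4, from 8.16, 8.08 and 10.3 to 11.2, 14.9 and 12.8 CPM (log2 fold change 0.55 ± 0.15, edgeR adjusted p = 0.00776), and the peak 1.11 kb upstream of Saa3, from 3.88, 3.02 and 4.82 to 5.84, 5.32 and 6.01 CPM (0.55 ± 0.19, adjusted p = 0.0334). Both are small. Without the libraries numbered 2 they had 0.37 and 0.44 (edgeR adjusted p = 0.37 and 0.331), and the peak upstream of Saa3 had 0.55 without number 1 (0.125). Neither passed with total counts, where the split was 0 higher and 1 lower. DESeq2 gave 2 higher and 0 lower, and an unadjusted p under 0.05 was reached by 5 of the 31 in edgeR and 4 in DESeq2. The Saa2 promoter peak had the same size with a wider error (0.56 ± 0.51, adjusted p = 0.551). The lowest values were -1.53 ± 0.57 at chr7:53991910-53992512 (adjusted p = 0.0614), from 0.736, 0.604 and 0.603 to 0.239, 0.21 and 0.209 CPM, and -1.08 ± 0.51 in Hps5 (adjusted p = 0.176).

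Given before LPS, (+)-JQ1 moved none of the 31 peaks past the threshold in either direction relative to LPS, beside 1.74% of all peaks higher and 3.49% lower. In edgeR 3 of the 31 had an unadjusted p under 0.05, and DESeq2 also gave 0 DARs, with 2 at that unadjusted level. Of the log2 fold changes, 20 were above and 11 below 0, with a median of 0.09. The largest were 0.73 ± 0.31 in the Saa3 body and 0.67 ± 0.51 in Hps5 (edgeR adjusted p = 0.18 and 0.547), and the lowest were -0.59 ± 0.26 at chr7:53993361-53995082 on the 3′ side of Saa1 and -0.57 ± 0.40 in Hps5 (adjusted p = 0.199 and 0.494). A miss of the threshold does not show that the groups were alike. An approximate 95% interval (1.96 SE) lay within 1 log2 unit of 0 at 16 of the 31 peaks, among them -0.34 to 0.57 at the Saa3 promoter, -0.17 to 0.53 at the peak 7.66 kb upstream of it and -0.19 to 0.38 at the peak upstream of Saa4. The widest bounds over the 31 were -1.39 and 1.66.

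The effect of LPS did not differ with and without (+)-JQ1 past the threshold at any of the 31 peaks, while 0.649% of all peaks had a positive and 3.19% a negative interaction. In edgeR 2 of the 31 had an unadjusted p under 0.05, as many as in DESeq2, which also gave 0 DARs. The highest interactions were 1.60 ± 0.72 and 1.31 ± 0.80 at the weak peaks in Hps5 and between Saa4 and Saa1 (edgeR adjusted p = 0.228 and 0.432). The lowest were -0.46 ± 0.70 at the Saa2 promoter and -0.45 ± 0.21 upstream of Saa4 (adjusted p = 0.814 and 0.25).

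Other acute-phase genes and their regulators were described by all peaks within 25 kb of their TSS. Around 16 acute-phase genes, LPS raised 43 of 151 peaks and lowered 6 (11.7% and 10.2% of all peaks). IL-10 alone raised 7 and lowered 9 (5.16% and 3.5%), and (+)-JQ1 before LPS raised 0 and lowered 20 (1.74% and 3.49%). The medians were 0.27, -0.15 and -0.22 on the log2 scale. Of the 20 peaks lowered by (+)-JQ1 before LPS, 11 lay around Serpina3g. Most of the rest lay around Orm1, Orm2 and Orm3, which share peaks and had 6 each. Crp and Apcs, classical liver acute-phase genes, had no peak in these windows. With LPS + IL-10 against LPS, 8 of the 151 peaks were higher and 22 lower (4.26% and 4.51% of all peaks), with a median of -0.07. Of the 22, 13 lay around Serpina3g.

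The genes of the list moved in both directions. Haptoglobin (Hp), which binds free hemoglobin, had 4 of 21 peaks higher and 0 lower with LPS + IL-10, and its promoter (chr8:112100917-112103759) held 3.6 ± 0.605 CPM with LPS and 11.9 ± 1.82 with LPS + IL-10 (SD, n = 3). Ceruloplasmin (Cp), a copper-carrying ferroxidase, had 4 of 17 higher and 0 lower. The orosomucoid genes Orm1, Orm2 and Orm3, which lie together and share peaks, had 5 peaks lower and 0 higher around Orm2, and the wide peak over the Orm2 promoter (chr4:63014189-63028036) held 73.2 ± 4.42 CPM with LPS and 47.8 ± 6.05 with LPS + IL-10. The serine protease inhibitor gene Serpina3g had 13 of 18 peaks lower, and its promoter (chr12:105473829-105474804) held 1.21 ± 0.292 CPM in unstimulated cells, 6.16 ± 0.513 with LPS, 1.86 ± 0.388 with LPS + (+)-JQ1 and 1.63 ± 0.0631 with LPS + IL-10. The Orm2 and Serpina3g promoters also fell with (+)-JQ1 before LPS, with log2 fold changes of -0.55 ± 0.13 and -1.69 ± 0.24 (edgeR adjusted p = 0.00365 and 6.96e-08).

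Among 9 regulators, LPS raised 42 of 145 peaks and lowered 12 (11.7% and 10.2% of all peaks), IL-10 alone raised 24 and lowered 0 (5.16% and 3.5%), and (+)-JQ1 before LPS raised 3 and lowered 0 (1.74% and 3.49%). Of the 24, 15 lay around Socs3, the feedback inhibitor that STAT3 induces, whose promoter (chr11:117831514-117832857) held 2.76 ± 0.501 CPM in unstimulated cells and 5.04 ± 0.295 with IL-10 (log2 fold change 0.86 ± 0.20, edgeR adjusted p = 0.0024). LPS alone raised 17 of the 27 peaks around Socs3. The Socs3 promoter held 6.985 ± 0.222 CPM with LPS (log2 fold change 1.33 ± 0.20, edgeR adjusted p = 4.15e-08), so its rise was not particular to IL-10. With IL-10 alone, Stat3, Cebpb and Rela had 3 raised peaks each, Il6st, Il6ra, Nfkb1 and Cebpa 0, and Cebpd was not matched in the annotation. With LPS + IL-10 against LPS, 24 regulator peaks were higher and 8 lower (4.26% and 4.51% of all peaks), 13 of the 24 at Socs3 and 7 of the 8 at Nfkb1. Around 9 receptor genes, which include the SAA receptors Fpr2, Tlr2 and Cd36, LPS raised 28 of 110 peaks and lowered 11, IL-10 alone raised 7 and lowered 0, (+)-JQ1 before LPS raised 6 and lowered 6, and LPS + IL-10 had 13 higher and 2 lower than LPS, to be read against the same shares of all peaks. Fpr1 and Fpr2 are neighbours that share peaks, and each had 19 peaks raised by LPS.

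Peaks elsewhere in the genome with the pattern most like the Saal1 and Saa3 promoters were looked for among 72642 peaks with at least 50 mean counts and more than 1 Mb away, by Pearson's r of log2 CPM over the 18 libraries. The 5 closest to the Saal1 promoter had r between 0.938 and 0.957 and lay nearest to Gm355, Mkks, Sema4c, Klhl24 and Sash1. The first of these (chr2:128319245-128320137) held a mean of 3.58 CPM with LPS and 9.41 with LPS + IL-10. The 5 closest to the Saa3 promoter had r between 0.935 and 0.942 and lay nearest to Hivep2, Helb, Dpysl2, Sema4c and Expi, with 7.92 and 18.7 CPM at the peak near Helb. Peaks near Sema4c stood in both groups of 5, at chr1:36622617-36624419 and chr1:36619057-36622450. The 18 libraries come from cells of 3 mice and both peaks of a pair are read from the same libraries, so r is a description.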

How the data were processed

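ATAC-seq measures open chromatin by inserting adapters with Tn5 transposase. The authors processed the reads with PEPATAC, aligned them to mm9 with Bowtie2, kept uniquely mapped reads, called peaks per library with MACS2, merged these into a union set and annotated it with ChIPseeker. The counting tool and any shift for the transposase cut are not given in the sources used here. The values used are the raw counts per peak that the authors deposited. The union table also held 6 columns that match no sample, which were not used.

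From these counts, CPM and log2 fold changes were computed with edgeR 4.0.16 (R 4.3.3) using TMM scaling, filterByExpr and the quasi-likelihood test over all 18 libraries, with Benjamini-Hochberg adjustment over 194230 peaks. The DAR rule was an FDR under 0.05 together with more than 0.5 on the log2 scale in either direction. DESeq2 1.42.0, other scalings, filters, windows and designs were alternatives. The procedure was also run on simulated counts, with changes at a small set of peaks, none of low level, in the LPS comparison alone. That setting does not cover weak peaks or data in which many peaks change.

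Libraries held 12020526 to 25908198 counts, and wide standard errors mark the peaks with few counts. All libraries numbered 1 ran on lane 5 and those numbered 3 on lane 6, while those numbered 2 ran on lane 5 without LPS and lane 6 with it. The marrow came from 3 mice, and the paper calls the 3 replicates biological. No source used here ties a library number to a mouse, so any pairing across groups is unknown. The p-values measure only the spread between these libraries.

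Members and lists were chosen with earlier results of these data known. Peaks named with values were those over the member promoters, the 3 of highest mean CPM, the 2 largest rises and falls of each comparison, the peaks at the 25 kb limit, and all DARs of the tested comparisons. A further 3 peaks, 2 in Saal1 13.04 and 14.31 kb from its TSS and 1 upstream of Saa2, were chosen after their values were seen. Promoter sequences and repeated windows were matched exactly on chromosome 7 of mm9, and motif letters in all promoters and peak centres.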

Additional observations from a re-analysis of the deposited data

How the results depend on the processing

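With LPS alone, the 5 DARs higher than unstimulated became 3 under total-count scaling, 2 at an FDR under 0.01 with a log2 fold change above 1, and 3 to 4 when the libraries of 1 number were left out (3 without replicate 1), and the 0 lower became 2 under total-count scaling. With IL-10 alone the 6 became 3 under the stricter threshold and 4 to 6 with 1 replicate number left out. With (+)-JQ1 alone the 2 became 0 under total-count scaling, under the stricter threshold and with at least 10 counts in every library (15 peaks tested), 1 with only the groups compared, and 0 to 2 with 1 replicate number left out (1 without replicate 1, 0 without replicate 2), and the 0 lower became 1 under total-count scaling. Total-count scaling moved the median over all tested peaks, on the log2 scale against unstimulated cells, from -0.05 to -0.26 with IL-10, from -0.03 to -0.26 with LPS and from -0.09 to -0.37 with (+)-JQ1, so changes against unstimulated cells are relative to these medians. A 50 kb window gave 1 negative interaction of LPS and (+)-JQ1 among 36 peaks in place of 0, an alternative chosen after seeing the data. The causes of these changes were not tested beyond the construction of each alternative.

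The median of LPS + IL-10 against LPS, 1.14 over 48 peaks, was 1.21 under total-count scaling, 1.20 with at least 10 counts in every library (20 peaks), 1.09 in a 50 kb window (57 peaks) and 1.08 to 1.26 with 1 replicate number left out. Refits by another tool, scaling, filter or design kept each fitted value above 0 (48 peaks, but 20 with at least 10 counts in every library), except without replicate 1, where 1 peak of 48 turned to -0.06. The median against IL-10 alone, 1.13, ranged from 1.03 to 1.22 with 1 replicate number left out. Libraries of different groups share only a number: their deviations from the group means correlated by 0.00573 on average over 45 same-number pairs (-0.0819 to 0.0644) and by -0.00286 over 90 other pairs, and 9 of 18 libraries correlated best with their own number. The fit with the number as a replicate block gave 5, 6, 2 and 0 DARs for LPS, IL-10, (+)-JQ1 and LPS + (+)-JQ1 against LPS, and a median of 1.17 for LPS + IL-10 against LPS. It changed no call, and sequencing lane as a covariate left these counts at 5, 6, 2 and 0. Among the 13 DARs, 143 refits kept the direction in each case, 118 kept the call and 25 lost it. At peaks with a mean under 20 counts per library, 23 of the 48, depth limits what can be seen.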
